A study of Vitis amurensis with 6 samples.

Results

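The 10 genes described here encode the enzymes of the general phenylpropanoid pathway at loci scattered over the grape genome: 3 phenylalanine ammonia-lyase (PAL) genes outside chromosome 16, 2 cinnamate 4-hydroxylase (C4H) genes and 5 4-coumarate-CoA ligase (4CL) genes. They were chosen by a fixed list of identifiers with no threshold on their levels, though with earlier results of these data known, and all 10 were found among the 31845 gene identifiers measured. The enzyme class of each identifier comes from the list that defined the set; no annotation table was used to check it. RNA was sequenced from leaves of 1-month-old wild-type Vitis amurensis plants, a cold-hardy wild grape, kept as in vitro cultures on a medium with the auxin IBA. The cold group was moved to a prechilled incubator at 4 °C under constant light for 2 h, and the control group (0 h of cold) stayed at 26 °C under the same light, with 3 libraries in each group. The comparison asks which transcripts change early in chilling.

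PAL removes the amino group of phenylalanine and so carries carbon from primary metabolism into the phenylpropanoids. C4H, a membrane-bound cytochrome P450, hydroxylates the resulting cinnamate to p-coumarate, and 4CL activates p-coumarate as its coenzyme A ester. That ester is the common precursor of lignin, of flavonoids such as anthocyanins, and of the stilbenes for which grape is known. In plants each step is usually encoded by several genes, whose use differs between tissues and stresses.

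Levels are FPKM, the reads of a gene per kilobase of its length and per fixed number of reads of its library, so they can be set side by side between genes. Library totals, recovered from the steps of the FPKM values, ran from 16437001 to 21217704 reads, and the 3 cold libraries were the deepest 3 of the 6. The labels leave unsaid whether libraries of 1 group stem from separate plants, so p-values cover the spread among these samples alone, which may be technical. The labels do not give the hour of sampling, and the time that passed and the move to the incubator cannot be told apart from temperature. In leaf RNA, fewer cells of a type and less RNA per cell cannot be told apart either, and the tissue was not checked against markers since identifiers come without gene names.

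With all libraries used, at least 1 gene of each of the 3 steps was called lower after 2 h of cold. A single 4CL gene was called higher. A gene was tested if it averaged 1 FPKM or more over the 6 libraries, which 8 of the 10 did. Of these 8, 5 fell (2 PAL, 1 C4H and 2 4CL genes), 1 4CL gene rose, and 1 PAL and 1 4CL gene did not pass the test (limma-trend on log2(FPKM + 1), adjusted p under 0.05 over 17155 tested genes). Among all tested genes 13.4% were called lower and 21.0% higher, 34.4% in all. Of the 8, 4 fell at least 2-fold, against 3.05% of all tested genes, and 0 rose at least 2-fold, against 6.60%. The 4CL gene VIT_216s0039g02040 lay at the cut, with a log2 change of -1.001. With 1 library left out, only the PAL gene VIT_213s0019g04460 kept a change of at least 2-fold throughout (log2 change -1.61 to -1.13). Without cold library 2 it was not called (limma-trend, adjusted p = 0.0576). The log2 change ran from -1.15 to -0.889 for VIT_216s0039g02040, from -1.20 to -0.928 for VIT_211s0052g01090 and from -1.38 to -0.762 for VIT_206s0004g02620. Without cold library 2 the members called lower numbered 2 (8.31% of all tested genes). Both were 4CL genes, so no PAL or C4H gene was called lower in that setting. The members called lower numbered 3 without control library 2 (9.25%) or control library 3 (9.74%). Without cold library 1, cold library 2, control library 2 or control library 3, 0 members were called higher, against 13.1% to 15.7% of all tested genes. The median log2 change was -0.77 over the 8 genes and 0.08 over all tested genes. In the same 6 genes the groups did not overlap, with every cold value below every control value for 5 (19.7% of all tested genes) and above for 1 (31.6%); over all tested genes 51.4% had no overlap in either direction.

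**Figure D1:**
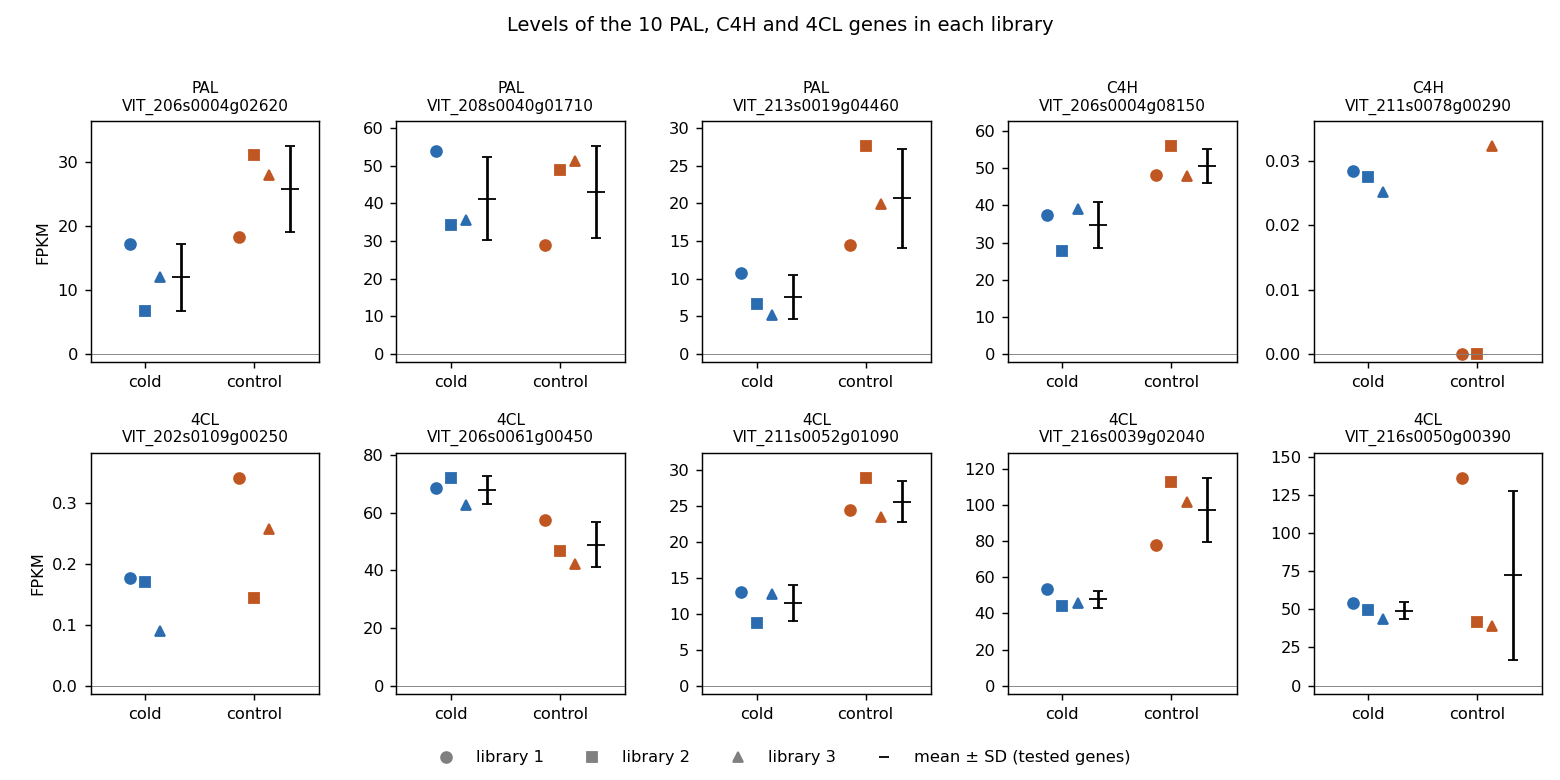
FPKM of each of the 10 genes (vertical axis, one panel per gene, own scale) in cold and control libraries 1, 2 and 3, with mean ± SD (n = 3) for the 8 tested genes. The groups separate in 6 panels; VIT_208s0040g01710 and VIT_216s0050g00390 overlap, and VIT_211s0078g00290 and VIT_202s0109g00250 stay below 1 FPKM.

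Among the PAL genes, those of chromosome fields 6 and 13 fell, and that of chromosome field 8 did not pass the test. (The chromosome field is read from the identifier.) VIT_213s0019g04460 had 10.8, 6.69 and 5.12 FPKM in cold libraries 1, 2 and 3, against 14.5, 27.6 and 19.9 FPKM in control libraries 1, 2 and 3. Every cold library was below every control library, with 283 to 527 reads in cold and 627 to 1179 in control. It averaged 7.53 ± 2.92 FPKM in cold and 20.6 ± 6.58 FPKM in control (SD, n = 3 each); the log2 difference was -1.35 (SE 0.30, adjusted p = 0.0151 by limma-trend). That was the largest change among the 8 tested genes, and 1.59% of all tested genes had a lower log2 change. Without cold library 2 its log2 change was -1.30 and its adjusted p 0.0576, where the other settings gave adjusted p-values down to 0.00123.

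VIT_206s0004g02620, the PAL gene of chromosome field 6, had 17.1, 6.69 and 12.1 FPKM in cold libraries 1, 2 and 3, against 18.2, 31.0 and 28.0 FPKM in control libraries 1, 2 and 3. The groups did not overlap, but cold library 1 and control library 1 lay close together. Its means were 11.96 ± 5.20 FPKM in cold and 25.7 ± 6.68 FPKM in control (SD, n = 3 each); the log2 difference was -1.10 (SE 0.34, adjusted p = 0.0447 by limma-trend). This call sat close to the threshold. Among the fits with 1 library left out or another filter, it was lost without cold library 2 (log2 change -0.76, adjusted p = 0.0953), cold library 3 (-1.15, adjusted p = 0.0924), control library 2 (-0.95, adjusted p = 0.128) or control library 3 (-1.02, adjusted p = 0.123), and with no filter on low values (-1.10, adjusted p = 0.0637), while its sign held in all 14 other settings tried (adjusted p from 0.00546 to 0.128).

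The PAL gene of chromosome field 8, VIT_208s0040g01710, was the most abundant of the 3 in both groups. It had 53.9, 34.2 and 35.5 FPKM in cold libraries 1, 2 and 3, against 29.0, 48.8 and 51.2 FPKM in control libraries 1, 2 and 3. The highest value was a cold library, the lowest a control library, and the groups overlapped. Its means were 41.2 ± 11.02 FPKM in cold and 43.0 ± 12.2 FPKM in control (SD, n = 3 each), and the log2 change of -0.05 had a 95% interval from -0.67 to 0.58 (limma-trend, adjusted p = 0.905). In fold terms the interval reaches from 0.627 to 1.49, so these libraries leave room for a fall or a rise within that range. Its log2 change was 0.04 to 0.10 when cold library 2, cold library 3, control library 2 or control library 3 was left out, and down to -0.30 without one of the others, so no direction can be given.

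The proportions among the 3 PAL genes separated cold from control libraries without overlap. The gene of chromosome field 8 made up 65.9%, 71.9% and 67.4% of the summed PAL level in cold libraries 1, 2 and 3, against 47.0%, 45.5% and 51.7% in control libraries 1, 2 and 3. Every cold library was above every control library. The mean share was 68.4% ± 3.12 in cold leaves and 48.1% ± 3.24 in control leaves (SD, n = 3 each), a difference of 20.3 percentage points. The two-sided exact permutation p was 0.1, the smallest that 3 libraries against 3 can give. Adjusted over 23 sums, shares and ratios tested in this way, it was 0.144. Some of these 23 were chosen after the values were seen, and the adjusted p depends on that choice. VIT_206s0004g02620 held 19.3% ± 4.65 of the sum in cold and 28.9% ± 0.634 in control, and VIT_213s0019g04460 held 12.3% ± 2.29 in cold leaves and 23.1% ± 2.83 in control leaves (SD, n = 3 each), without overlap in either gene (exact permutation p = 0.1 each). The level of the chromosome field 8 gene relative to that of VIT_213s0019g04460 (a ratio chosen after the values were seen) was 5.002, 5.12 and 6.93 in cold libraries 1, 2 and 3, and 2.01, 1.77 and 2.58 in control libraries 1, 2 and 3. As parts of 1 sum the 3 shares depend on each other, so their separations are not separate results. The shares leave out the PAL genes of chromosome 16, which are not in the set.

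**Figure D2:**
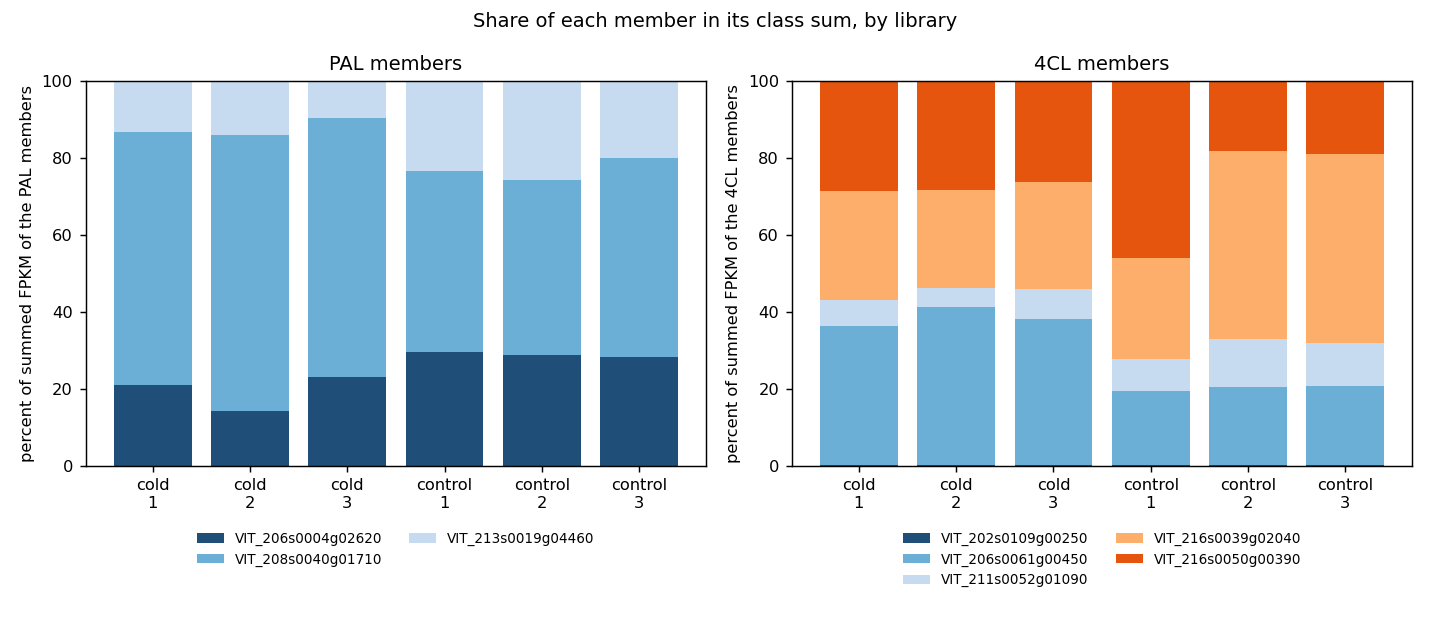
Percent of the summed FPKM of the 3 PAL members (left) and the 5 4CL members (right) held by each gene, one stacked bar per library, cold libraries left of control libraries. The PAL gene VIT_208s0040g01710 and the 4CL gene VIT_206s0061g00450 take a larger share in every cold library than in any control library; the share of VIT_216s0050g00390 is 45.9% in control library 1 and between 18.1% and 28.7% in the other 5.

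Of the C4H genes 1 carried nearly all of the transcript. VIT_206s0004g08150, of chromosome field 6, had 37.4, 27.6 and 39.0 FPKM in cold libraries 1, 2 and 3, against 48.2, 55.9 and 47.9 FPKM in control libraries 1, 2 and 3. Every cold library was below every control library, and the libraries of each group lay within 1.41-fold of each other in cold and 1.17-fold in control. The means were 34.7 ± 6.14 FPKM in cold and 50.7 ± 4.56 FPKM in control (SD, n = 3 each), which puts cold at 68.4% of control. The log2 difference was -0.55 (SE 0.14, adjusted p = 0.0275 by limma-trend). With 1 library left out, the adjusted p was above the threshold without cold library 1 (0.0517), cold library 2 (0.0543), control library 2 (0.0877) or control library 3 (0.0599), with log2 changes from -0.61 to -0.40 in those 4 settings and a range of adjusted p from 0.00437 to 0.0877 over all settings.

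The second C4H gene, VIT_211s0078g00290 of chromosome field 11, was at the limit of detection. It had 1 read in each of the 3 cold libraries and in control library 3, the smallest whole counts that fit its values. It was listed at 0 in control libraries 1 and 2. Pooled over a group, that is 3 reads in cold and 1 in control; 3 reads, the upper limit that a count of 0 allows, correspond to 0.0270 FPKM over the pooled cold libraries and 0.0323 FPKM over the pooled control libraries. Both groups are at or under that floor, so no fold is given and a difference was not detectable at this depth. Such limits cover counting error only.

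The 4CL genes split. VIT_216s0039g02040 and VIT_211s0052g01090 fell about 2-fold, VIT_206s0061g00450 rose, VIT_216s0050g00390 did not pass the test and VIT_202s0109g00250 was close to silent. VIT_216s0039g02040, of chromosome field 16, had 53.4, 44.3 and 45.8 FPKM in cold libraries 1, 2 and 3, against 78.1, 113 and 102 FPKM in control libraries 1, 2 and 3. The cold libraries were close to each other and all below the control libraries. Its means were 47.8 ± 4.87 FPKM in cold and 97.5 ± 17.7 FPKM in control (SD, n = 3 each); the log2 difference was -1.0 (SE 0.15, adjusted p = 0.00373 by limma-trend). In absolute terms this was the largest drop of any of the 8 tested genes for which the test was passed.

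VIT_211s0052g01090, of chromosome field 11, showed a change of the same size at a lower level. It had 13.1, 8.65 and 12.8 FPKM in cold libraries 1, 2 and 3, against 24.5, 28.9 and 23.4 FPKM in control libraries 1, 2 and 3. Here too all cold libraries were below all control libraries, with means of 11.5 ± 2.47 FPKM in cold and 25.6 ± 2.91 FPKM in control (SD, n = 3 each); the log2 difference was -1.10 (SE 0.17, adjusted p = 0.00383 by limma-trend). These 2 4CL genes were the only ones of the 6 called genes that stayed called in all 14 other settings, with adjusted p-values of at most 0.0231 for VIT_216s0039g02040 and 0.0228 for VIT_211s0052g01090. Their profiles over the 6 libraries were also the most alike of any pair of the 8 tested genes: after subtraction of each gene's control mean they differed by a root mean square of 0.20 on the log2 scale.

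VIT_206s0061g00450, the 4CL gene of chromosome field 6, was the gene that rose. It had 68.6, 72.1 and 62.5 FPKM in cold libraries 1, 2 and 3, against 57.4, 46.6 and 42.3 FPKM in control libraries 1, 2 and 3. The groups did not overlap, and their nearest values were those of cold library 3 and control library 1. It averaged 67.7 ± 4.86 FPKM in cold and 48.8 ± 7.80 FPKM in control (SD, n = 3 each); the log2 difference was 0.47 (SE 0.13, adjusted p = 0.0280 by limma-trend). The rise was less than 2-fold, with the cold mean at 139% of the control mean, and 81.5% of all tested genes had a lower log2 change. The call was lost under median-of-ratios scaling (log2 change 0.38, adjusted p = 0.0716) and without cold library 1 (0.46, adjusted p = 0.0834), cold library 2 (0.43, adjusted p = 0.1001), control library 2 (0.45, adjusted p = 0.0860) or control library 3 (0.38, adjusted p = 0.0793), with adjusted p-values from 0.00111 to 0.1001 over all settings.

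For VIT_216s0050g00390, the second 4CL gene of chromosome field 16, 1 library decides the mean. It had 54.4, 49.6 and 43.3 FPKM in cold libraries 1, 2 and 3, against 136, 41.7 and 39.0 FPKM in control libraries 1, 2 and 3. Control library 1 stood far above the other 5, with 5803 reads, while control libraries 2 and 3 lay below all cold libraries. The means were 49.1 ± 5.54 FPKM in cold and 72.3 ± 55.3 FPKM in control (SD, n = 3 each), and the log2 change was -0.31 with a 95% interval from -1.40 to 0.79 (limma-trend, adjusted p = 0.639). Without control library 1 the log2 change was 0.27 (adjusted p = 0.0887, where all settings gave 0.0887 to 0.796), so no direction can be given for this gene.

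The last 4CL gene, VIT_202s0109g00250 of chromosome field 2, had 7, 7 and 4 reads in cold libraries 1, 2 and 3 and 12, 5 and 9 reads in control libraries 1, 2 and 3. Pooled over a group these are 18 reads or 0.144 FPKM in cold (95% exact Poisson interval 0.0851 to 0.227) and 26 reads or 0.248 FPKM in control (0.162 to 0.364). The ratio of cold to control was 0.578, with an exact interval from 0.299 to 1.10 that covers counting error only and includes no change. The groups overlapped, and the gene was under the limit for the test.

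**Figure D3:**
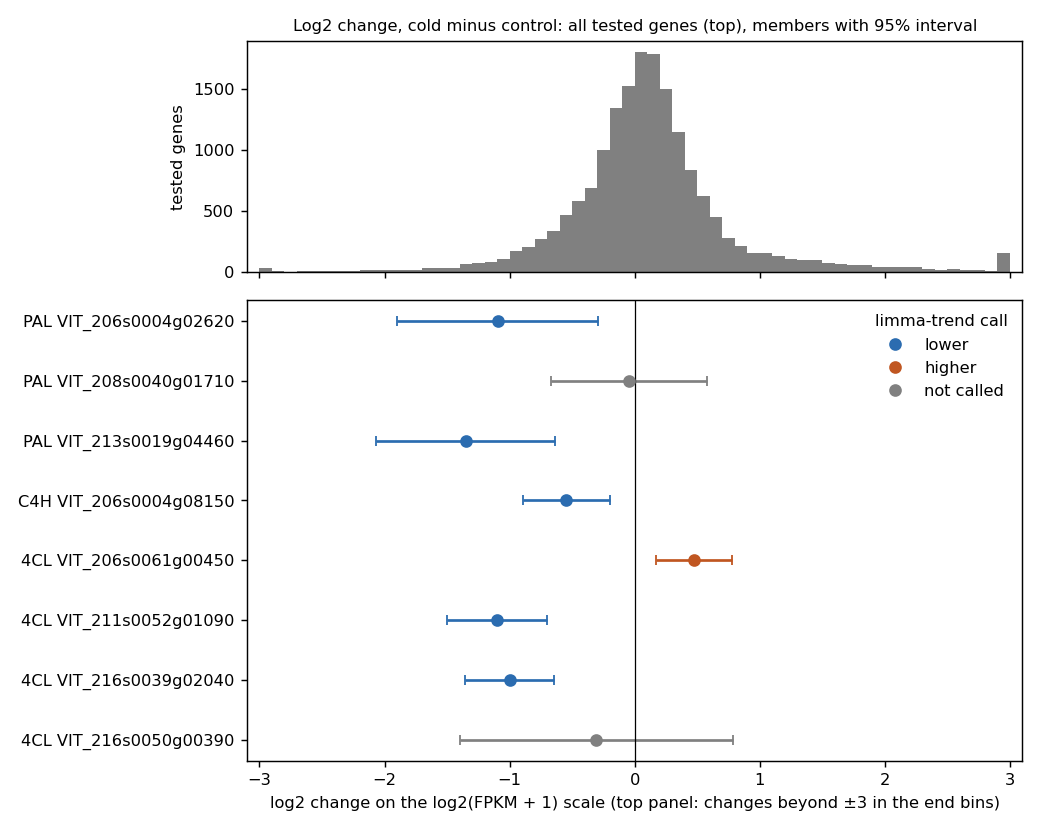
Log2 change, cold minus control, on the log2(FPKM + 1) scale. The upper panel counts all 17155 tested genes per bin of 0.1, and the lower panel gives each of the 8 tested members with its 95% interval, coloured by its call. The 5 genes called lower lie between -1.35 and -0.55, the gene called higher at 0.47.

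Within the 4CL class the balance between the most abundant genes turned over. The level of VIT_206s0061g00450 relative to that of VIT_216s0039g02040, a pair chosen after their values were seen, was 1.29, 1.63 and 1.36 in cold libraries 1, 2 and 3, and 0.736, 0.414 and 0.416 in control libraries 1, 2 and 3. The gene that rose was thus above the gene that fell in every cold library and below it in every control library. Its share of the summed 4CL level was 38.5% ± 2.56 in cold leaves and 20.04% ± 0.576 in control leaves (SD, n = 3 each), a difference of 18.4 percentage points without overlap (two-sided exact permutation p = 0.1, the smallest possible). VIT_211s0052g01090 held 6.54% ± 1.44 in cold leaves and 10.7% ± 2.22 in control leaves (SD, n = 3 each), also without overlap (exact permutation p = 0.1). As parts of 1 sum, these shares depend on each other. The share of VIT_216s0039g02040, 27.1% ± 1.53 in cold leaves and 41.5% ± 13.1 in control leaves (SD, n = 3 each), overlapped between groups (exact permutation p = 0.3), and VIT_216s0050g00390 took 45.9% of the sum in control library 1. With that gene left out of the sum, an alternative chosen after the data were seen, the shares of VIT_216s0039g02040 were 37.6% ± 2.05 in cold leaves and 56.4% ± 6.68 in control leaves (SD, n = 3 each) and did not overlap.

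Summed over members, C4H and 4CL were lower in every cold library than in any control library, and PAL was not. The PAL sum was 81.8, 47.6 and 52.7 FPKM in cold libraries 1, 2 and 3, against 61.7, 107 and 99.0 FPKM in control libraries 1, 2 and 3. Cold library 1 lay above control library 1, and the test gave an exact permutation p of 0.2 for means of 60.7 ± 18.4 FPKM in cold and 89.3 ± 24.3 FPKM in control (SD, n = 3 each). The 4CL sum was 190, 175 and 164 FPKM in cold libraries 1, 2 and 3, against 296, 230 and 207 FPKM in control libraries 1, 2 and 3 (exact permutation p = 0.1). Its means were 176 ± 12.7 FPKM in cold and 244 ± 46.5 FPKM in control (SD, n = 3 each), and without VIT_216s0050g00390 they were 127 ± 7.27 FPKM in cold and 172 ± 14.5 FPKM in control, still without overlap. Adjusted over the 23 tests, some of them chosen after the values were seen, a p of 0.1 became 0.144 and the p of the PAL sum 0.271. The 10 genes together summed to 272 ± 32.3 FPKM in cold and 384 ± 27.4 FPKM in control (SD, n = 3 each; exact permutation p = 0.1), which is 0.0489% ± 0.00512 of the summed FPKM of all genes in cold and 0.0707% ± 0.00621 in control. The ratio between steps overlapped between groups: the 4CL sum over the C4H sum was 5.20 ± 1.06 in cold leaves and 4.86 ± 1.122 in control leaves (SD, n = 3 each; exact permutation p = 0.6).

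The order of the genes by level differed between the groups. In cold leaves VIT_206s0061g00450 came first, and its lowest library (62.5 FPKM) was above the highest library of the next gene, VIT_216s0050g00390 (54.4 FPKM). VIT_216s0050g00390, VIT_216s0039g02040, VIT_208s0040g01710 and VIT_206s0004g08150 followed with means from 49.1 to 34.7 FPKM, each overlapping the next. A gap without overlap separated them from VIT_206s0004g02620, VIT_211s0052g01090 and VIT_213s0019g04460, at 11.96 to 7.53 FPKM, which again overlapped in turn. In control leaves VIT_216s0039g02040 came first with VIT_206s0061g00450 at rank 4, and each of the 8 genes overlapped the next in level. In cold leaves the 8 levels stood above 40.4% (VIT_213s0019g04460) to 91.5% (VIT_206s0061g00450) of all tested genes, and in control leaves above 71.7% (VIT_213s0019g04460) to 94.9% (VIT_216s0039g02040).

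All 8 tested genes varied more between libraries of a group than the median tested gene, and the PAL genes and VIT_216s0050g00390 varied most. The pooled within-group SD on the log2 scale was 0.52, 0.40 and 0.46 for VIT_206s0004g02620, VIT_208s0040g01710 and VIT_213s0019g04460, larger than in 94.6%, 89.8% and 92.8% of all tested genes. For VIT_216s0050g00390 it was 0.72. The C4H gene and the other 3 tested 4CL genes had SDs of 0.17 to 0.24, and the median over all tested genes was 0.15. All 3 PAL genes were lowest in control library 1 of the control group and highest in cold library 1 of the cold group. Control library 1 was the lowest control library for 4 of the 8 tested members and for 42.4% of all tested genes. Over the 8 tested genes, cold library 1 was the highest cold library for 6 and the lowest for 0, while among all tested genes it was highest for 29.2% and lowest for 38.7%. Against the mean of control libraries 2 and 3, control library 1 stood at -0.66, -0.76 and -0.66 on the log2 scale for the 3 PAL genes in that order, and without it the log2 change of VIT_206s0004g02620 was -1.32.

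The genes next to the members were looked at in the order of the identifiers. Of the 5 identifiers before and 5 after each of the 8 tested genes, 80 in all, 52 were tested; 15 of these were called higher and 2 lower, where 21.0% of all tested genes were called higher and 13.4% lower, and no other member stood among them. Each of the 5 genes that fell had at most 1 neighbour called lower within that distance. Near-identical copies elsewhere could still share reads with these genes, and how such reads were counted is not stated in these sources.

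Genes outside the set with a profile like a class sum were found by the root mean square difference over the 6 libraries of log2(FPKM + 1) minus the control mean. The nearest to the C4H sum was VIT_219s0090g00570, at 0.06 on the log2 scale, with 1.81 FPKM in cold and 2.99 FPKM in control on average (limma-trend, adjusted p = 0.0352). The nearest to the 4CL sum was VIT_200s0286g00140, at 0.05, with 4.91 FPKM in cold and 7.07 FPKM in control on average (limma-trend, adjusted p = 0.0440). For the PAL sum it was VIT_218s0089g00570, at 0.08, with 5.18 FPKM in cold and 7.38 FPKM in control on average, which did not pass the test (limma-trend, adjusted p = 0.257). Each was the closest of the tested genes outside the set, over only 6 libraries, and the files do not say what these genes encode.

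**Figure D4:**
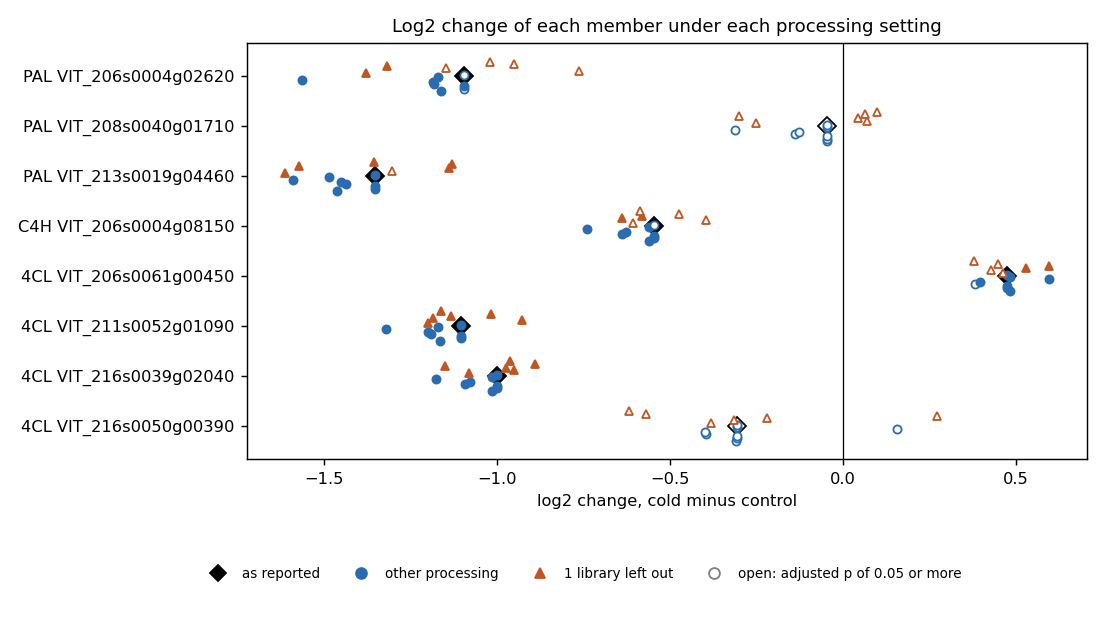
Log2 change of each of the 8 tested genes, cold minus control, as reported and under 14 other settings (8 of processing, 6 with 1 library left out); open symbols have an adjusted p of 0.05 or more. The 6 called genes keep their side of zero in every setting, and VIT_208s0040g01710 and VIT_216s0050g00390 cross it.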

How the data were processed

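The authors deposited 1 table of FPKM values for 6 leaf libraries, 3 per group, and each column carries the title of its sample. The submitters' processing notes list FastQC, cutadapt, STAR, HTSeq and DESeq2, with neither version nor role. Build, annotation, strand setting and the handling of reads shared between copies: not given in the sources used here. Values of a gene are whole multiples of 1 step, from which library totals, gene lengths and whole reads (within 0.001 reads) were recovered for all 25054 genes above 0. The shortest length that fitted was taken, so the read counts of genes with few reads are the smallest that fit.

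The 17155 genes averaging 1 FPKM or more were tested for a difference of cold from control on the log2(FPKM + 1) scale (limma-trend, two-sided), adjusted after Benjamini and Hochberg over these genes at a threshold of 0.05. This scale understates changes of low genes. Sums, shares and ratios had exact permutation tests. All members are named. Other identifiers are the nearest profile to each class sum and 1 neighbour chosen after its values were seen. The members and lists were chosen with earlier results of these data known. The 29 gene lists by product name matched 0 identifiers and were not tested. The scripts were tested on simulated data, in which the spread between libraries was a fixed setting and not that of the members. Software was limma 3.58.1 in R 4.3.3, and SciPy 1.17.1, pandas 2.3.3 and numpy 2.4.6 in Python 3.11.15.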

Additional observations from a re-analysis of the deposited data

How the results depend on the processing

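The 6 called genes kept their sign in all 14 other settings. Over the 8 tested genes, 89 of 112 values kept both sign and side of the threshold, 17 lost the call and 6, all of them of the 2 genes not called, changed sign. The gene called higher was not called under median-of-ratios scaling (0 called higher), and with 1 library left out 0 to 1 genes were called higher and 2 to 5 lower, the fewest without cold library 2, where 2253 of all tested genes were called higher and 1425 lower, against 3606 and 2295 with all libraries. A replicate block left 3 members called lower and 1 higher, with 9.48% of all tested genes called lower and 14.5% higher, against 13.4% and 21.0% without it: VIT_206s0004g02620 (adjusted p = 0.106) and VIT_206s0004g08150 (0.0803) were lost. Deviations of libraries with the same number correlated at -0.26, -0.13 and -0.28, so libraries of the same number did not deviate together. With 3 libraries a group this cannot show whether the samples were handled in pairs, and the labels do not say. The change of VIT_208s0040g01710 ran from -0.30 to 0.10 with 1 library left out. That of VIT_216s0050g00390 ran from -0.62 to 0.27 and was 0.16 with library quality weights, and the difference in its share of the 4CL sum, 0.157 percentage points, was -0.0464 under quantile normalization and ran from -4.60 to 9.29 with 1 library left out. Library quality weights called 3549 of all tested genes lower. Rises made up 61.1% of all calls as deposited, 49.0% after median-of-ratios scaling and 45.5% after quantile normalization, which moved the median change from 0.08 to -0.03; the members called were 1 higher and 5 lower on the deposited scale, 0 and 5 with median-of-ratios factors (16.4% of all tested genes higher and 17.0% lower), and 1 and 5 after quantile normalization (15.5% and 18.6%). The alternatives for other genes of the pathway were not run, because no list had members. With 3 libraries a group, exact tests cannot go below 0.1. The cause of these shifts was not tested.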

Other observations

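The identifier before VIT_216s0050g00390 in the numbering, VIT_216s0050g00380, went the opposite way in the library that set that 4CL gene apart. It had 82.6, 70.5 and 68.7 FPKM in cold libraries 1, 2 and 3, against 21.8, 65.0 and 51.8 FPKM in control libraries 1, 2 and 3, so control library 1 was its lowest library. On the log2 scale control library 1 lay 1.73 above the mean of control libraries 2 and 3 for VIT_216s0050g00390 and -1.37 from it for VIT_216s0050g00380. Of all tested genes, 106 (0.618%) deviated further upward in control library 1 than the 4CL gene. The summed level of both genes was 137, 120 and 112 FPKM in cold libraries 1, 2 and 3, and 158, 107 and 90.8 FPKM in control libraries 1, 2 and 3. VIT_216s0050g00380 averaged 73.9 ± 7.54 FPKM in cold and 46.2 ± 22.2 FPKM in control (SD, n = 3 each) and did not pass the test (log2 change 0.80, limma-trend, adjusted p = 0.145). The files do not say what it encodes, and it was chosen after its values were seen.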
